A study of Mus musculus with 3 samples.

Results

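The 9 genes Cd47, Sirpa, Cd24a, Mertk, Axl, Tyro3, Gas6, Pros1 and Mfge8, which carry signals for and against engulfment of a cell, were followed across the cell classes of mouse brainstem with and without a diffuse midline glioma. They were found by their symbols in the gene list of the deposited matrices, where each of the 9 matched 1 of 32285 features, and each had UMIs in all 3 libraries. The series holds 3 droplet single-cell RNA libraries (10x Genomics 3' kit, unique molecular identifiers, UMIs). Libraries tumour 1 and tumour 2 come from brainstems of B6(Cg)-Tyrc-2J/J mice that had received 100000 cells of DIPG4423, a murine diffuse midline glioma line, at 6 weeks of age and were left untreated for 3 weeks. The titles call these libraries controls. The normal library is brainstem without a tumour from an untreated mouse, for which the labels give no line and no separate age. All tumour cells descend from 1 line, so the tumour pair gives 2 host animals and not 2 tumours of separate origin.

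On GRCm38 (GENCODE release 21) the 9 genes lie on 5 chromosomes. Mertk is at chr2:128698956-128802894, Sirpa at chr2:129592835-129632228 and Tyro3 at chr2:119797733-119818104. Axl is at chr7:25757273-25788705, Mfge8 at chr7:79133768-79149060, Gas6 at chr8:13465374-13494490 and Cd24a at chr10:43578284-43584265. Cd47 is at chr16:49800533-49915010 and Pros1 at chr16:62854307-62929346.

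Phagocytes read a balance of signals on the cells they touch. Cd47 binds the receptor Sirpa on myeloid cells and restrains engulfment, and Cd24a is a surface glycoprotein whose human counterpart acts as a similar brake through Siglec-10. Mertk, Axl and Tyro3 are the TAM receptor tyrosine kinases, which bind phosphatidylserine on dying cells through the bridging proteins Gas6 and Pros1, while Mfge8 links phosphatidylserine to integrins. In the brain, microglia and astrocytes use Mertk to clear debris and synapses.

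After filters, 10550 cells of tumour 1, 9407 of tumour 2 and 3083 of the normal library were kept, with a median of 8784, 11297 and 2395 UMIs. Libraries shared 30 or fewer kept barcodes. Cells were grouped without using the 9 genes or the other genes of the pathway lists, and each class is called "-like" because it rests on marker genes chosen for this work. Glial progenitor-like cells numbered 4279, 1959 and 1. Microglia-like cells numbered 3180, 3367 and 730, and macrophage-like cells 632, 1396 and 30. Cells of clusters left unnamed, which belong to no class, numbered 1192, 583 and 122. Levels are counts per 1000000 UMIs (CPM) in the summed counts of a class, and compare 1 gene between classes or libraries. Changes are log2 fold changes from edgeR's quasi-likelihood test on those sums, with Benjamini-Hochberg adjustment over all genes tested, and "called" means an adjusted p under 0.05. The 2 tumour libraries supply the spread in the comparison with normal brainstem, and the single normal library is assumed to vary like them. What the p-values hold is thus the spread of the tumour pair, with 1 residual degree of freedom and no further animals behind it. To this edgeR adds spread pooled over genes. The median prior degrees of freedom for that part ran from 4.42 over all cells to 80.7 in neuron-like cells.

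The brake ligand Cd47 was present in every class that was large enough to measure. Among glial progenitor-like cells its level was 263 CPM in tumour 1 and 235 in tumour 2. That was below neutrophil-like cells, at 540 and 397 CPM, and above microglia-like cells, at 142 and 113 CPM. B-like cells, at 410 and 345 CPM, dendritic-like cells, at 325 and 400, and T or NK-like cells, at 332 and 386, were also above it. Endothelial-like cells, at 284 and 204 CPM, overlapped with the glial progenitor-like cells. When each cell was thinned to 1000 UMIs, 22.6% and 20.2% of glial progenitor-like cells had a Cd47 UMI, against 16.4% and 11.9% of microglia-like cells. Unthinned shares were 95.1% and 96.2% against 50.9% and 58.6%, at median depths of 15925 and 22216 UMIs against 4158 and 8345. The 4 main glial progenitor-like clusters (4, 5, 6 and 12) were alike in Cd47, from 248 to 290 CPM in tumour 1 and from 208 to 258 CPM in tumour 2. Clusters 7, 8 and 15 were left unnamed, with glial progenitor as their best marker list. They had 152, 239 and 151 CPM in tumour 1 and 92.4, 269 and 154 CPM in tumour 2.

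Its receptor Sirpa followed the myeloid classes. Microglia-like cells held 414 CPM in tumour 1, 604 in tumour 2 and 701 in the normal library. Macrophage-like cells followed with 229, 329 and 365 CPM, then neutrophil-like cells with 143, 210 and 112 CPM. Glial progenitor-like cells were among the low classes, at 21.4 and 28.8 CPM, and overlapped with mural-like and choroid plexus-like cells. In the tumour pair the 3 leading classes did not overlap, and together microglia-like and macrophage-like cells held 61.8% and 18.4% of all Sirpa UMIs in tumour 1 and 64.9% and 23.3% in tumour 2. Reads that fit the similar Sirpb1 genes as well could blur these counts.

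In the tumour libraries Cd24a was higher in glial progenitor-like cells than in microglia-like and macrophage-like cells. Among classes of at least 20 cells in both tumour libraries it was highest in neutrophil-like cells. Glial progenitor-like cells stood at 66.4 and 78.8 CPM, whereas microglia-like cells had 3.81 and 2.27 CPM and macrophage-like cells 10.4 and 7.35 CPM. Neutrophil-like cells had 565, 507 and 822 CPM, and dendritic-like cells 71.6, 101.9 and 72.0 CPM. B-like cells differed between libraries, with 78.1 CPM over 20 cells of tumour 1, 110 CPM in tumour 2 and 1063 CPM in the normal library. In the normal library they were thus above neutrophil-like cells. Thinned to 1000 UMIs, a Cd24a UMI was seen in 37.6%, 40.9% and 53.8% of neutrophil-like cells (unthinned 63.2%, 65.9% and 82.7%) and in 6.27% and 6.54% of glial progenitor-like cells (unthinned 62.2% and 76.1%). In microglia-like cells, taken as the background for free RNA, the thinned shares were 0.527%, 0.452% and 0.521%. Cd24a has processed copies in the mouse genome, so its counts are uncertain to the extent that reads could be split among them.

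**Figure D1:**
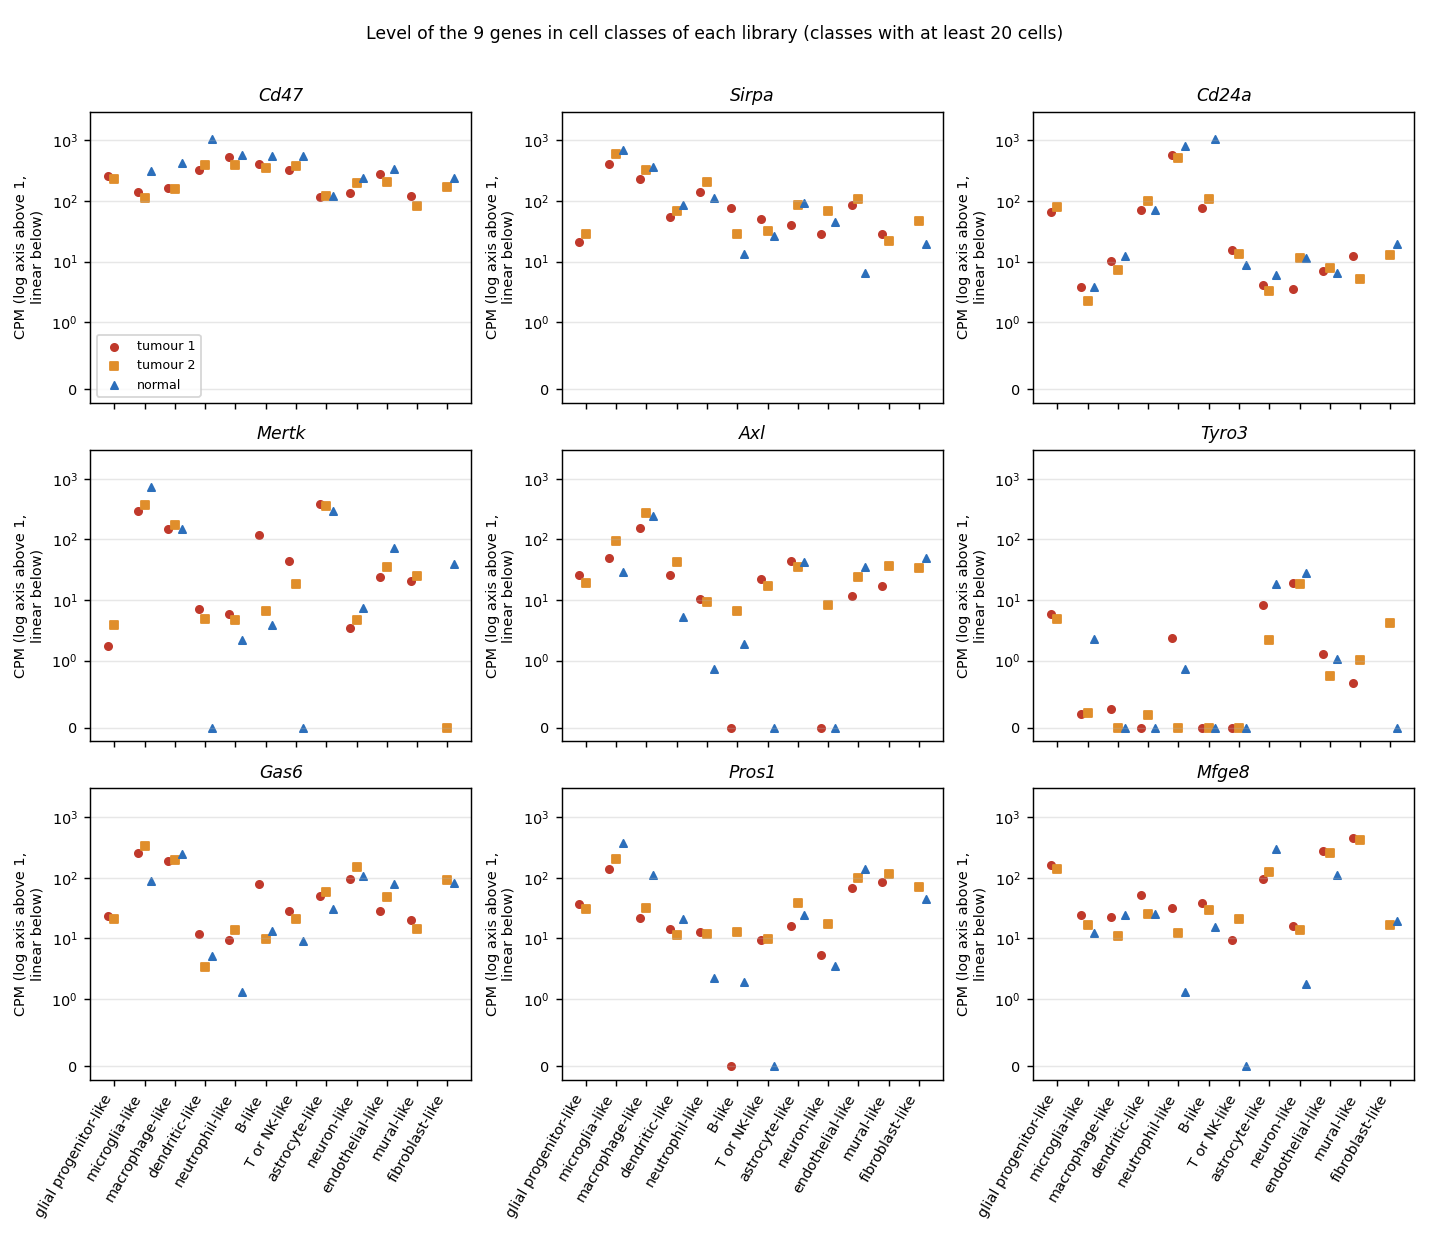
Level of each of the 9 genes in CPM (log axis above 1 CPM, linear below) in 12 cell classes, with 1 point per library for classes of at least 20 cells. Sirpa, Mertk and Gas6 are high in microglia-like and macrophage-like cells, Mfge8 in mural-like, endothelial-like and glial progenitor-like cells, and Cd24a in neutrophil-like cells at 507 to 822 CPM.

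The 3 TAM receptors peaked in different classes of the tumour libraries. By mean level Mertk and Axl nevertheless shared their leading classes there, which were astrocyte-like, microglia-like and macrophage-like cells in a different order. For Axl, astrocyte-like cells, at 44.1 and 34.4 CPM, overlapped with dendritic-like cells, at 26.3 and 42.0, and mural-like cells, at 17.1 and 36.8. Mertk was highest in astrocyte-like cells, at 380, 352 and 293 CPM, and in microglia-like cells, at 299, 372 and 744 CPM, and the tumour values of these classes overlapped. Macrophage-like cells were next at 148 and 174 CPM, and glial progenitor-like cells last at 1.71 and 3.86 CPM. A Mertk UMI was seen in 29.6%, 34.1% and 46.9% of thinned microglia-like cells (unthinned 71.0%, 87.8% and 63.8%, median depths 4158, 8345 and 1883 UMIs). In B-like cells, which should lack the gene, the thinned shares were 0 of 19, 0 of 94 and 0.521%, at 2131, 3037 and 1739 UMIs. Those counts of 0 allow a share of up to 15.8% and 3.19%. Reads of Mertk could include its antisense neighbour Gm14011 and the snoRNA Gm23172 inside it, because the strand setting of the counting is not given in the sources used here.

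Axl, the TAM receptor with the strongest preference for Gas6, peaked in macrophage-like cells at 154 CPM in tumour 1, 272 in tumour 2 and 243 in the normal library. Microglia-like cells had 49.8, 95.7 and 28.9 CPM, and the tumour values of the 2 classes did not overlap. Glial progenitor-like cells carried a lower level, 25.7 and 19.3 CPM, which overlapped with mural-like, T or NK-like and endothelial-like cells. Tyro3 was scarce in the classes of at least 20 cells in both tumour libraries. Neuron-like cells had 19.3, 18.7 and 27.8 CPM, glial progenitor-like cells 5.97 and 4.83 CPM, and microglia-like cells 0.200, 0.227 and 2.28 CPM. The highest Tyro3 level in a class of at least 50 cells was 164 CPM in the oligodendrocyte-like cells of the normal library. It rested on 17 UMIs in 86 cells.

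Among the bridging ligands, Gas6 was highest in microglia-like cells in the tumour libraries, at 261 CPM in tumour 1 and 336 in tumour 2. In the normal library, where they had 87.4 CPM, macrophage-like, choroid plexus-like and neuron-like cells had more, and neuron-like cells held 46.3% of the Gas6 UMIs against 21.8% in microglia-like cells. Choroid plexus-like cells had 218, 217 and 110 CPM and macrophage-like cells 191, 195 and 243 CPM. Neuron-like cells were also high, at 94.6, 149 and 106 CPM, while glial progenitor-like cells had 23.1 and 21.1 CPM. Gas6 overlaps Tmem255b on the other strand, and the same limit on strand applies. Pros1 was highest in microglia-like cells too, at 139, 201 and 378 CPM, and glial progenitor-like cells had 36.9 and 30.1 CPM. Mfge8 had another distribution. Mural-like cells, the contractile cells of vessel walls, had 456 and 420 CPM, endothelial-like cells 275 and 254 CPM, and glial progenitor-like cells 165 and 142 CPM, and these classes did not overlap. Microglia-like cells had 24.5 and 16.8 CPM of Mfge8.

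Glial progenitor-like cells held most UMIs of some of these genes in the tumour libraries. They made up 40.6% and 20.8% of the kept cells in tumour 1 and tumour 2. Their median depths were 15911 and 22210 UMIs, against 8784 and 11297 over all kept cells. Their share of all UMIs was thus larger than their share of cells, and a gene's share reflects it as well as the gene's level. In tumour 1 and tumour 2 glial progenitor-like cells contributed 86.2% and 69.3% of the Cd24a UMIs, 85.8% and 64.1% of Mfge8, 90.8% and 85.4% of Tyro3, and 78.4% and 51.2% of Cd47. The Cd47 level of these cells was only a little above that over all kept cells. Their Cd47 shares were thus only a little above their share of all UMIs. In the normal library the leading sources were neutrophil-like cells for Cd24a (59.8%) and for Cd47 (28.1%), astrocyte-like cells for Mfge8 (50.9%) and neuron-like cells for Tyro3 (59.3%). Mertk came mostly from microglia-like cells in all 3 libraries, with 67.8%, 71.9% and 72.4%. The source of Axl differed between the tumours, with 46.1% from glial progenitor-like cells in tumour 1 and 10.4% in tumour 2, where macrophage-like cells gave 54.2%. The Axl level of glial progenitor-like cells was below that over all kept cells in both tumours. Their Axl shares were thus below their share of all UMIs.

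**Figure D2:**
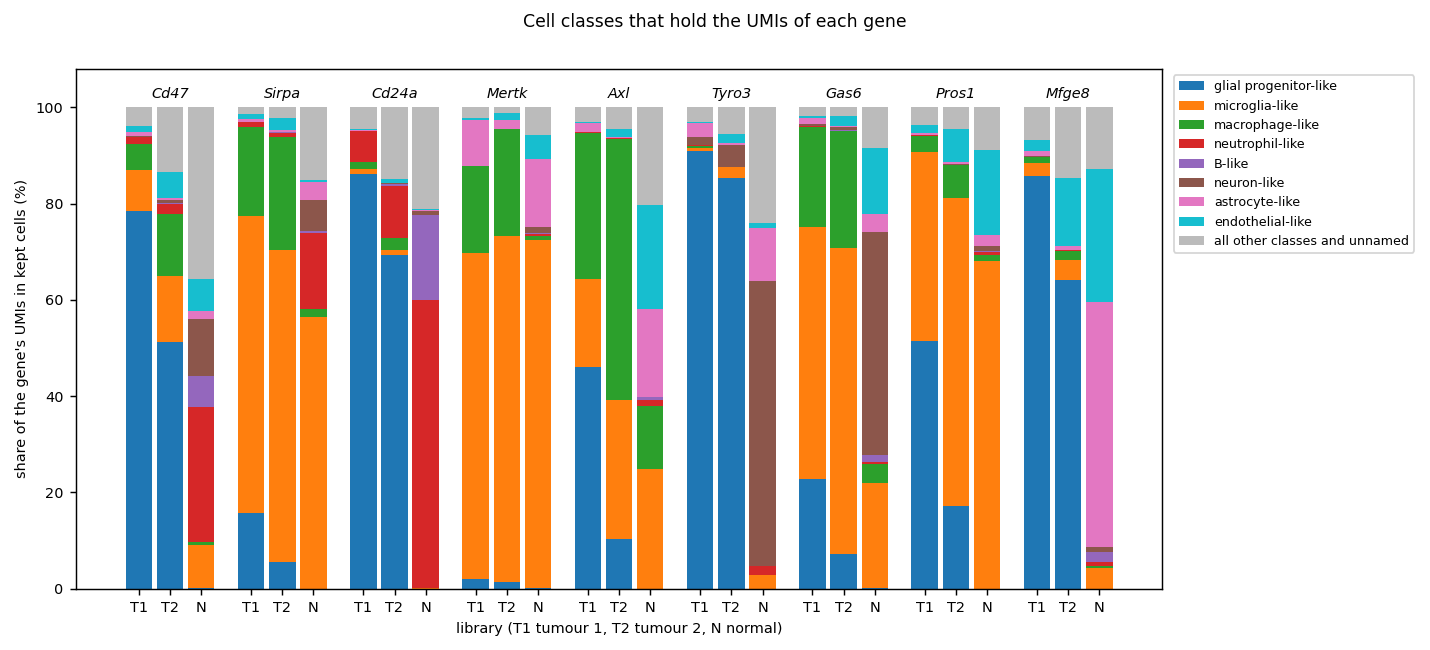
Share of each gene's UMIs (%) that lies in each cell class, by library (T1 tumour 1, T2 tumour 2, N normal). Glial progenitor-like cells hold 69.3% to 86.2% of Cd24a in the tumour libraries, where neutrophil-like cells hold 59.8% in the normal library, and microglia-like cells hold 67.8% to 72.4% of Mertk throughout.

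Within the tumour libraries, microglia-like and glial progenitor-like cells were compared with the library as a block. In this and the other comparisons between classes, the spread came from sums of several classes of the same 2 animals. The fit treats those sums as separate samples, so these p-values may be too small. All 9 genes were called, 5 higher and 4 lower in microglia-like cells, where 67.2% of all genes were called, 33.3% higher and 33.9% lower. The median log2 change of all genes was -0.02. Mertk was higher by 7.38 ± 0.31 (log2, SE, adjusted p = 8.41e-13), Sirpa by 4.74 ± 0.26, Gas6 by 4.14 ± 0.23, Pros1 by 2.68 ± 0.24 and Axl by 2.00 ± 0.32 (adjusted p = 1.73e-05). For Axl the difference was 2.61 without tumour 1. Cd24a fell by 4.22 ± 0.25 on the log2 scale, Tyro3 by 4.12 ± 0.54, Mfge8 by 2.50 ± 0.25 and Cd47 by 0.56 ± 0.20 (adjusted p = 0.0185). Scaling by library size alone changed the split of all genes from 4922 higher and 5000 lower to 3562 and 6705, and the members' split stayed at 5 and 4.

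Macrophage-like cells differed from microglia-like cells in 5 of the 9 genes, where 21.8% of all genes were called. Axl was higher by 1.85 ± 0.31 (log2, SE, adjusted p = 0.000219), Cd24a by 1.86 ± 0.25 and Cd47 by 0.64 ± 0.20 (adjusted p = 0.0289). The Cd24a call compares low levels, 10.4 and 7.35 CPM against 3.81 and 2.27 CPM in microglia-like cells, which were taken above as background for free RNA. The part of such RNA in the Cd24a difference was not tested. Pros1 fell by 2.38 ± 0.24 (adjusted p = 5.36e-07) and Mertk by 0.76 ± 0.24 (adjusted p = 0.0266). Without the library block 3 members were called, and Mertk had an adjusted p of 0.118 and Cd47 of 0.0786. By library size alone Cd47 differed by 0.34 (adjusted p = 0.249), and all genes split into 820 higher and 2987 lower in place of 1699 and 1514. Sirpa, at -0.57 ± 0.23 (adjusted p = 0.0784), and Gas6, at -0.33 ± 0.20 (adjusted p = 0.284), were not called. Sirpa was called lower by library size alone (adjusted p = 0.0105), without the low-count filter (0.0123), with doublets kept (0.0281) and under the stricter cell filter (0.0442), and Gas6 by library size alone (adjusted p = 0.0286). Cd47 lost its call without the low-count filter (adjusted p = 0.0504) and at resolution 2.0 (0.0808), and Mertk with DESeq2 (0.0822).

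Astrocyte-like cells, a host glial class, differed from glial progenitor-like cells in 6 of the 9 genes, against 56.9% of all genes. Mertk was higher in astrocyte-like cells by 7.22 ± 0.31, Gas6 by 1.37 ± 0.24, Sirpa by 1.32 ± 0.26 and Axl by 0.94 ± 0.37 (log2, SE, adjusted p = 0.0354 for Axl). Cd24a fell by 4.16 ± 0.37 and Cd47 by 0.97 ± 0.21. Without tumour 1 the Sirpa difference was 1.92. The call for Axl was lost without the block (adjusted p = 0.107). Tyro3 (0.17), Mfge8 (-0.41) and Pros1 (-0.39) were not called. Size factors of DESeq2 gave 4813 genes higher and 3655 lower, where the main scaling gave 3947 and 4448.

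The tumour libraries were then compared with normal brainstem, first over all kept cells. Summed in this way, fewer cells of a type and less RNA per cell cannot be told apart. Axl stood at 38.8 CPM in tumour 1 and 80.0 in tumour 2 against 13.8 in the normal library, a change of 2.68 ± 0.59 (log2, SE, adjusted p = 0.0331), and of 1.88 without tumour 2. Mfge8 had 134 and 95.1 against 34.4 CPM, a change of 2.28 ± 0.34 (adjusted p = 0.0153). Cd24a fell by 1.92 ± 0.26 (adjusted p = 0.0132), from 285 CPM to 53.7 and 48.8. In each of these the tumour pair lay on the same side of the normal value. Thus 3 of the 9 genes were called, 2 higher and 1 lower, where 21.5% of all genes were, 13.1% higher and 8.36% lower.

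The other 6 genes were not called over all cells. Gas6 was at 70.6 and 128 against 47.6 CPM, a change of 1.63 ± 0.49 (adjusted p = 0.0686), and it was called with DESeq2 (1.55, adjusted p = 0.0114) and under the stricter cell filter (1.71, adjusted p = 0.0480). Cd47 had 234 and 197 against 423 CPM, with a log2 change of -0.42 ± 0.29 (adjusted p = 0.334). Glial progenitor-like cells made up 40.6% and 20.8% of the kept cells in tumour 1 and tumour 2, and neutrophil-like cells 3.06% and 5.27% against 16.9% in the normal library. Without the blood and marrow classes, Cd24a was higher in the tumour libraries by 2.94 (adjusted p = 0.00522) and Cd47 changed by 0.41 (adjusted p = 0.338). The direction for Cd24a depended on which cells were summed. All genes had a median change of 0.14 and split into 2680 higher and 1710 lower. Under library size alone the median was -0.42 and the split 1686 and 3798, and 2 members were called higher and 1 lower as before.

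In microglia-like cells, the Gas6 and Axl pair rose in the tumour libraries. Gas6 went from 87.4 CPM (115 UMIs) in the normal library to 261 and 336 CPM, a log2 change of 2.34 ± 0.32 (SE, adjusted p = 0.00203). Axl went from 28.9 CPM (38 UMIs) to 49.8 and 95.7 CPM, a change of 1.92 ± 0.49 (adjusted p = 0.0220), and of 1.20 without tumour 2. Mfge8 rose from 12.2 CPM (16 UMIs) to 24.5 and 16.8 CPM, by 1.31 ± 0.38 (adjusted p = 0.0364). Cd47 fell from 319 CPM to 142 and 113, by 0.77 ± 0.22 (adjusted p = 0.0356). Thus 4 of 9 genes were called, 3 higher and 1 lower, where 21.9% of all genes were, 14.5% higher and 7.35% lower. The CPM ratios and the fitted changes differ because the fit scaled libraries by TMM factors of 0.925, 0.834 and 1.30.

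Mertk and Pros1 were lower in CPM in the tumour libraries, and whether they were called depended on the scaling and on the depth of the sums. Mertk was at 299 and 372 against 744 CPM and changed by -0.58 ± 0.28 (log2, SE, adjusted p = 0.172). Pros1 was at 139 and 201 against 378 CPM and changed by -0.58 ± 0.30 (adjusted p = 0.196). By library size alone both were called lower, Mertk by -1.15 (adjusted p = 0.000606) and Pros1 by -1.16 (adjusted p = 0.000944), while Mfge8 was no longer called (adjusted p = 0.191). With sums thinned to equal depth both were also called lower, Mertk by -0.72 (adjusted p = 0.0301) and Pros1 by -0.74 (adjusted p = 0.0272), and Mfge8 was not called (adjusted p = 0.147). By library size alone all genes had a median of -0.45 in place of 0.12, and 1245 higher and 3487 lower in place of 2184 and 1104. Sirpa changed by 0.12 ± 0.33 (adjusted p = 0.831), and by -0.46 under library size alone. DESeq2 did not call Axl (adjusted p = 0.153) or Mfge8 (adjusted p = 0.117). Cd47 lost its call without the low-count filter (-0.66, edgeR adjusted p = 0.0558).

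The microglia-like class was made up of different clusters in the libraries. Cluster 9 held 75.3% of the normal cells, cluster 3 held 46.9% of those in tumour 1, and clusters 1 and 0 held 35.4% and 30.2% of those in tumour 2. Cluster 0, led by Hmox1, Spp1, Cst7 and Lpl, had 8 normal cells. Gas6 was highest in cluster 0, at 350 and 447 CPM in the tumour libraries, and Mertk was 188 and 274 CPM there. In cluster 9 Gas6 was 148 and 150 CPM in the tumour libraries and 90.9 in the normal library, and Mertk was 513, 649 and 779 CPM. In clusters 3 and 9 alone, where each library had at least 50 cells, Gas6 changed by 0.67 (adjusted p = 0.193), Axl by 0.82 (adjusted p = 0.375) and Cd47 by -0.48 (adjusted p = 0.236). Only Mfge8 was then called, where 5.33% of all genes were.

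**Figure D3:**
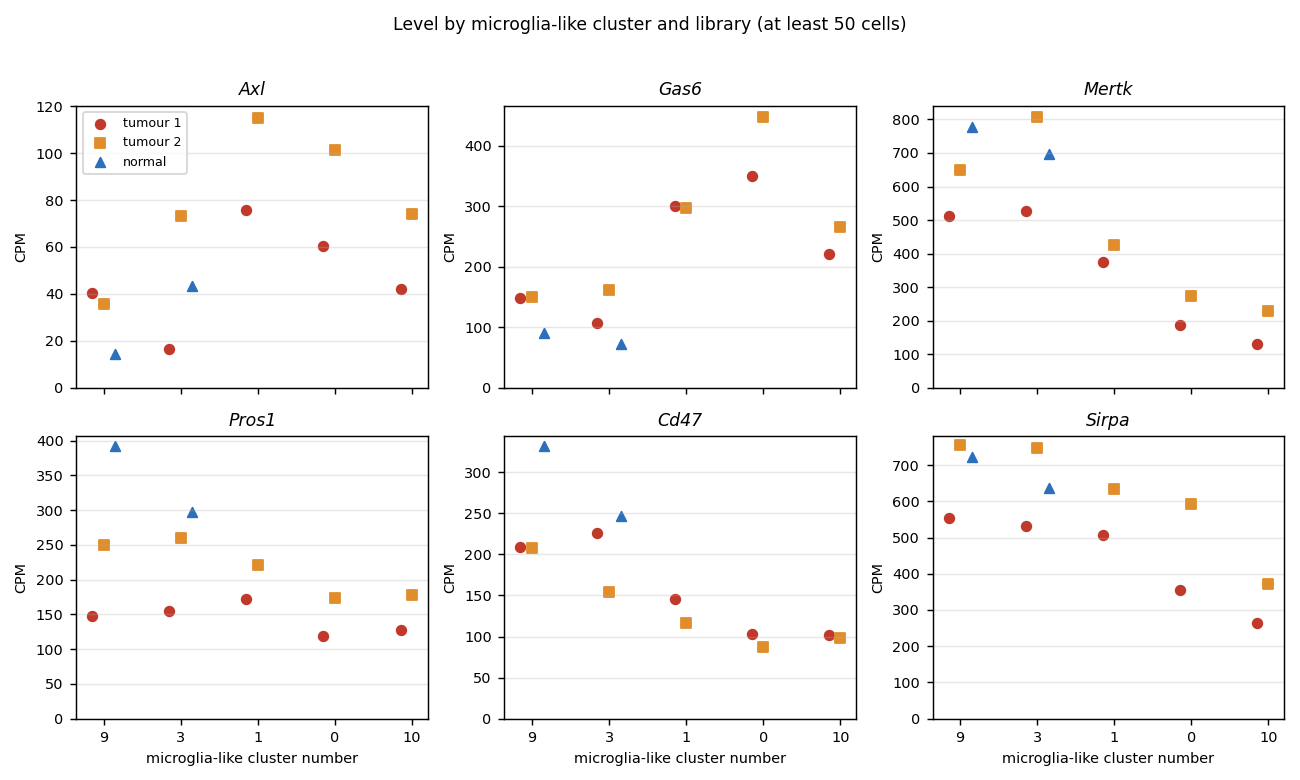
Level (CPM) of 6 of the genes in the microglia-like clusters, with 1 point per library for clusters of at least 50 cells. Gas6 reaches 350 and 447 CPM in cluster 0, where Mertk is at 188 and 274 CPM, and the normal library has points only in clusters 9 and 3.

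The shares of cells gave the same order for both genes that led. Thinned to 1000 UMIs, a Gas6 UMI was seen in 17.0% and 22.4% of tumour microglia-like cells and 8.33% of normal ones (unthinned 48.6%, 70.4% and 13.3%). In T or NK-like cells the Gas6 share was 1.27%, 1.23% and 0 of 35, which allows up to 8.57%, at median depths of 3577, 4558 and 2323 UMIs. Axl UMIs were seen in 3.79%, 8.32% and 1.56% of thinned microglia-like cells (unthinned 19.7%, 45.6% and 3.97%). In B-like cells they were seen in 0 of 19 in tumour 1, 0 of 94 in tumour 2 and 0 of 192 in the normal library. Those counts allow up to 15.8%, 3.19% and 1.56%. The Axl share in the normal library is thus at the limit of that background, and the share in tumour 1 lies below its own limit. Macrophage markers summed to 26.4, 29.6 and 6.84 CPM in the microglia-like cells. In the ratio of Axl to these markers found in macrophage-like cells, those sums would carry 2.41, 5.93 and 0.202 CPM of Axl. For Mfge8, glial progenitor markers summed to 181 and 84.1 CPM in the tumour microglia-like cells and would carry 6.21 and 2.85 CPM of Mfge8. The part of such RNA in the Axl and Mfge8 results was not tested.

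Axl and Gas6 were the receptor and ligand called together in the microglia-like cells, and their upstream sequences are shown for that reason, as the 250 bases before the RefSeq gene start (GRCm38.p6), 5′ to 3′ on the gene's strand. The Axl stretch is chr7:25788734-25788983 and the Gas6 stretch chr8:13494536-13494785, both on the minus strand, and capitals mark the GC box (GGGCGG on either strand).
Axl: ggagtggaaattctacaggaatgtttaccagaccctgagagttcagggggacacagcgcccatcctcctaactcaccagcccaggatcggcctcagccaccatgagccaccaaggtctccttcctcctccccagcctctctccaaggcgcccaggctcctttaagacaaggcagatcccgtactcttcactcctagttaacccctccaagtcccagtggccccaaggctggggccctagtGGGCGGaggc
Gas6: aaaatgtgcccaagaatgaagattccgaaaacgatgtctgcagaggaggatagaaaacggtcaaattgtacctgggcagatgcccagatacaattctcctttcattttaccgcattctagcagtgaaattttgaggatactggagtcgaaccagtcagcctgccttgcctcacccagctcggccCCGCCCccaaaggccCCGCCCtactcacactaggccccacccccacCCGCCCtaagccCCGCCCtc
The GC box, the binding motif of Sp1-type factors, occurs 1 time before Axl and 4 times before Gas6, and 32.7% of 32851 promoters of that length hold it. The AP-1 motif (TGANTCA), the STAT motif (TTCNNNGAA) and the TATA box (TATAAA), searched on both strands, were not found in either window, and 6.75%, 7.02% and 12.4% of promoters hold them. Of the 9 genes, 7 had a promoter in that table, and each of the 7 held a GC box.

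In macrophage-like cells, the class in which Axl was highest, no member of 8 tested was called. The normal library had only 30 such cells, and 1.39% of all genes were called (2057 of 12766 had an unadjusted p under 0.05, and DESeq2 called 338 genes and no member). Axl changed by 0.42 ± 0.50 (log2, SE, adjusted p = 0.720) and Gas6 by 0.27 ± 0.37 (adjusted p = 0.756). The largest values were -1.42 ± 0.59 for Pros1 (adjusted p = 0.275), with 21.4 and 31.9 CPM against 110, and -0.81 ± 0.33 for Cd47 (adjusted p = 0.274), with 163 and 157 CPM against 426. The median over all genes was 0.87, and it was 0.26 by library size alone. The test of whether the tumour changes of macrophage-like and microglia-like cells differ called 0.179% of all genes and no member. DESeq2 was not run on that difference, and Gas6 had -1.46 ± 0.48 (unadjusted p = 0.00597, adjusted p = 0.273) and Mertk 1.91 ± 0.49 (unadjusted p = 0.000729, adjusted p = 0.124).

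In neutrophil-like cells, Cd24a fell by 1.24 ± 0.29 (log2, SE, adjusted p = 0.0123), from 822 CPM in the normal library to 565 and 507. Within cluster 13, which held 89.5% and 95.8% of the tumour cells and 39.9% of the normal ones, Cd24a stood at 622 and 521 against 875 CPM. By library size alone the change was -0.61 (adjusted p = 0.154). Mfge8 was called higher by 3.33 ± 0.91 (adjusted p = 0.0243), on 27 and 19 UMIs against 3. That call was lost with DESeq2 (3.42, adjusted p = 0.0999) and with doublets kept (1.67, adjusted p = 0.112). Glial progenitor markers were also higher in these cells, at 513 and 170 against 4.79 CPM. In the ratio found in glial progenitor-like cells those marker sums would carry 17.6 and 5.76 CPM of Mfge8, where 31.6 and 12.4 CPM were measured. The part of that RNA in the Mfge8 result was not tested further. Thus 2 of 7 members were called, where 17.2% of all genes were, and all genes split into 801 higher and 874 lower, or 2143 and 411 by library size alone.

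In astrocyte-like cells, Mfge8 fell by 1.49 ± 0.24 (log2, SE, adjusted p = 0.000435). It stood at 94.5 CPM in tumour 1 and 127 in tumour 2, both below the 296 CPM of the normal library. It was the only member called of 8 tested, where 4.45% of all genes were. With sums thinned to equal depth the change was -1.43 and the call was lost (adjusted p = 0.285), and 3 genes in all were called. Mertk, at 380 and 352 against 293 CPM, changed by 0.28 ± 0.22 (adjusted p = 0.540), and Gas6, at 50.0 and 58.8 against 30.5 CPM, by 0.77 ± 0.36 (adjusted p = 0.244).

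The largest called change of a member within the 6 host classes was found in endothelial-like cells. Sirpa rose from 6.40 CPM (6 UMIs) in the normal library to 86.1 CPM (135 UMIs) and 106 CPM (821 UMIs), by 4.18 ± 0.43 (log2, SE, adjusted p = 0.000196). Thinned to 1000 UMIs, 8.77% and 11.9% of tumour endothelial-like cells had a Sirpa UMI, against 0 of 143 normal ones, which allows up to 2.10% (unthinned 50%, 59.4% and 3.45%, median depths 16507, 24347 and 5290 UMIs). T or NK-like cells, taken as background, had 0 of 79 (up to 3.80%), 1.23% and 2.86%, at median depths of 3577, 4558 and 2323 UMIs. Microglia markers summed to 343, 783 and 220 CPM in the endothelial-like cells. In the ratio of Sirpa to these markers in microglia-like cells, those sums would carry 15.3, 42.2 and 6.01 CPM of Sirpa. Macrophage markers, at 72.0, 74.1 and 7.47 CPM, would carry 9.75, 17.9 and 0.331 CPM. These values assume that the ratio within the donor class also holds for free RNA, and the part of such RNA in the Sirpa result was not tested.

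Mfge8 also rose in endothelial-like cells, from 112 to 275 and 254 CPM, by 1.50 ± 0.25 (log2, SE, adjusted p = 0.00199). Mertk fell by 0.94 ± 0.32 (adjusted p = 0.0484), from 71.5 to 24.2 and 35.6 CPM, and it was not called with DESeq2 (adjusted p = 0.237) or under the stricter cell filter (adjusted p = 0.0769). Thus 3 of 8 members were called, where 32.3% of all genes were. All genes split into 2180 higher and 1493 lower, or 1880 and 2394 by library size alone. Mural markers summed to 1711, 2192 and 5760 CPM in this class, so the normal library had the highest sum and the lowest Mfge8 level. Rgs5, a marker on the mural list, was among the leading genes of the endothelial-like cluster itself, so these sums do not measure mural RNA alone. In the ratio found in mural-like cells, the sums of the tumour libraries would carry 526 and 315 CPM of Mfge8, more than the 275 and 254 CPM measured. They cannot give the part of mural RNA in the Mfge8 result, which was not tested. The endothelial-like class was made up differently in the libraries, which was examined after seeing the data. At the higher clustering resolution of 2.0 it split into cluster 36, with Apln and Angpt2 among its leading genes, which held 58, 148 and 1 cells, and cluster 25, which held 14, 71 and 144. Within cluster 25 Sirpa was at 107 and 174 CPM in the tumour libraries against 6.42 in the normal library. Mfge8 was at 63.3 and 107 against 112 CPM there, and Mertk at 127 and 146 against 71.7 CPM. Mfge8 was thus not higher there, and Mertk was higher, unlike in the class as a whole. In cluster 36 of the tumour libraries Mfge8 was at 307 and 284 CPM and Mertk at 8.80 and 12.9 CPM. With 14 cells in tumour 1, cluster 25 was not tested.

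In neuron-like cells no member of 7 was called by edgeR or DESeq2, where 4.28% of all genes were (1371 of 10976 had an unadjusted p under 0.05). Mfge8, on 9 and 12 UMIs in the tumour libraries, had a change of 3.10 ± 1.27 (unadjusted p = 0.0171, adjusted p = 0.219) there, and glial progenitor markers were at 375 and 287 against 61.3 CPM.

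Whether the tumour change itself differed between classes was tested for endothelial-like cells against microglia-like and astrocyte-like cells, contrasts chosen after seeing the data. Against microglia-like cells 3 of the 9 genes were called, Sirpa, Axl and Gas6, where 4.91% of all genes were. Against astrocyte-like cells 2 were called, Sirpa and Mfge8, where 4.07% of all genes were.

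**Figure D4:**
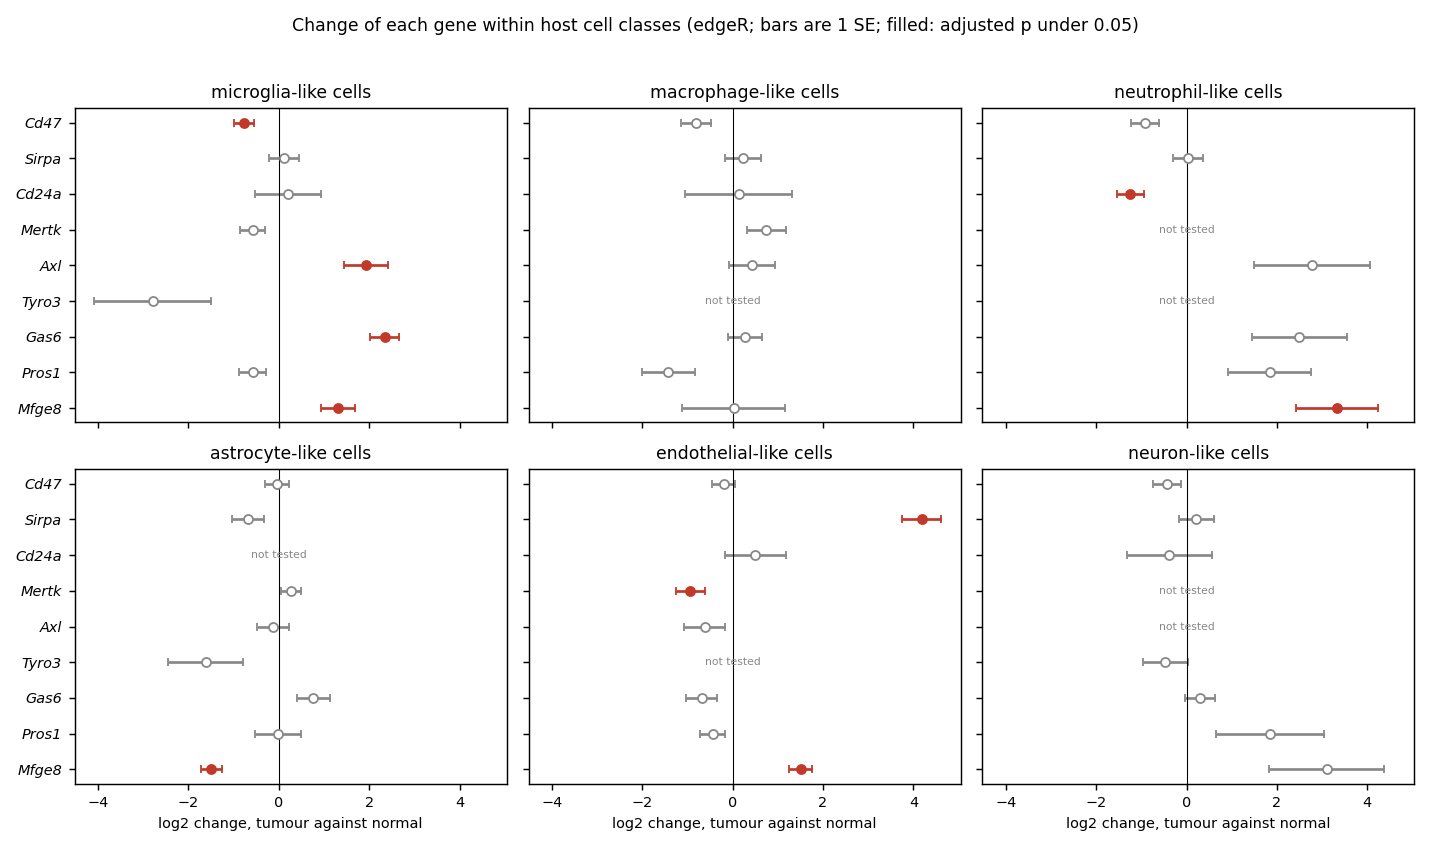
Log2 change (tumour against normal) of each of the 9 genes within 6 host cell classes, with 1 SE, from edgeR on summed counts. Filled points have an adjusted p under 0.05, and Sirpa at 4.18 in endothelial-like cells and Gas6 at 2.34 in microglia-like cells stand farthest above 0 relative to their errors.

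The wider pathway was described by 6 lists of 56 genes. In microglia-like cells 14.5% of all genes were called higher and 7.35% lower, with a median of 0.12. There, 4 of 7 other bridging molecules and opsonins were called higher and 0 lower, with a list median of 1.51. Lgals3, the lectin galectin-3, rose by 3.35 (log2, adjusted p = 0.000984) and C1qb, a chain of complement C1q, by 1.75 (adjusted p = 0.0197). Of 13 other engulfment receptors tested, 3 were called higher and 1 lower (median 0.31). Cd300lf, a phosphatidylserine-binding immune receptor, rose by 3.96 (adjusted p = 0.00101) and the scavenger receptor Cd36 by 2.98 (adjusted p = 0.00534). The integrin chain Itgav, a receptor subunit for Mfge8, fell by 1.00 (adjusted p = 0.0107). Of 6 regulators of TAM receptors and ligands, 2 were called higher (median -0.18). These were Socs3, a cytokine signalling inhibitor, at 2.94 (adjusted p = 0.00168), and Vkorc1, which recycles the vitamin K needed to carboxylate Gas6 and Pros1, at 0.90 (adjusted p = 0.0496).

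Among 9 brakes and their signalling genes only Ptpn6, the phosphatase SHP-1 that acts below Sirpa, was called (0.88, adjusted p = 0.0364, list median 0.53). Of 10 genes of engulfment and digestion, Abca7, a lipid transporter, rose by 1.07 (adjusted p = 0.0473) and Elmo1, a Rac activator partner, fell by 1.28 (adjusted p = 0.00627). The list median was 0.33.

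Over all kept cells 13.1% of all genes were called higher and 8.36% lower, and the counts of 2 of 16 receptors and 2 of 11 engulfment genes called higher lay near that share. Cd200, a brake ligand, rose by 2.18 (log2, adjusted p = 0.0147). Siglecg, the mouse counterpart of Siglec-10, fell by 2.81 (adjusted p = 0.0384) and Thbs1, a secreted ligand of Cd47, by 2.43 (adjusted p = 0.0214), so that 1 of 9 brakes was higher and 3 were lower. Of 16 receptors 2 were called each way, with Itgav at 2.75 (adjusted p = 0.0158) and Lrp1 at 1.97 (adjusted p = 0.0183) higher, and Havcr1 at -5.88 (adjusted p = 0.0383) and Cd300lb at -3.37 (adjusted p = 0.0223) lower. Of 7 opsonins 4 were higher, led by C1qb at 2.83 (adjusted p = 0.0384) and C1qa at 2.53 (adjusted p = 0.0475), and C3 was lower at -4.10 (adjusted p = 0.0186). Itgav was thus called lower in microglia-like cells and higher over all cells.

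The remaining lists over all cells gave 2 of 6 regulators higher, Socs3 at 3.76 (log2, adjusted p = 0.00931) and Vkorc1 at 2.64 (adjusted p = 0.0110). Of 11 genes of engulfment and digestion, 2 were higher, Dock1 at 1.51 (adjusted p = 0.0278) and Abca1 at 1.23 (adjusted p = 0.0454). Of 7 genes of phosphatidylserine exposure, the scramblase gene Ano6 was higher at 1.15 (adjusted p = 0.0492) and the flippase gene Atp11b lower at -1.60 (adjusted p = 0.0180). List medians for brakes, phosphatidylserine exposure, receptors, opsonins, engulfment and regulators were -0.06, -1.03, 0.42, 1.57, 0.14 and 0.22.

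The genes most like each member were found across 29 sums of class and library (14 classes of at least 50 cells), as Pearson's r of log2(CPM + 1) over 10804 genes. These sums share libraries and depth, so r is a description. Among the genes most like Cd47 were Lbr (0.92) and Samhd1 (0.82), and Sirpa was most like Lair1 (0.89), Ptgs1 (0.88) and P2ry13 (0.85). Mertk was most like Selenop (0.85), Smo (0.85) and Phyhd1 (0.84), and Axl most like Lamp1 (0.85), Rrbp1 (0.81) and Lap3 (0.81). Among the genes most like Gas6 were Snx24 (0.84) and Slc2a8 (0.80), and Pros1 was most like Fez2 (0.86), Aga (0.83) and Slc39a1 (0.81). Mfge8 was most like Bpgm (0.91), Ginm1 (0.90) and Lix1l (0.88), and Cd24a most like Hmgb2 (0.81), E2f2 (0.81) and Nfe2 (0.81). Tyro3 was most like Nrbp2 (0.91), Pcyt2 (0.91) and Brsk2 (0.91).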

How the data were processed

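Raw UMI counts per gene and cell barcode were deposited by the authors, with Cell Ranger 6.1.2 named per the file headers and mm10 named in the submitters' processing notes. The strand setting of the counting is not given in the sources used here. Cells with at least 500 UMIs and 300 genes and at most 15% mitochondrial UMIs were kept, and Scrublet calls of doublets (3.43%, 2.47% and 1.47%) were removed. Cells were clustered in scanpy 1.11.5 (2000 variable genes without the members and pathway genes, 30 components, 15 neighbours, Leiden resolution 1.0). A cluster took the name of its best marker list at a score of at least 1 with at least 3 markers detected. It stayed unnamed if another list had more markers among its 10 leading genes. It also stayed unnamed for low UMIs. That applied where 3 times its median UMIs lay below the median of its libraries and its list had no marker among the leading genes. Summed counts were tested with edgeR 4.0.16 (TMM, quasi-likelihood) in R 4.3.3, for classes of at least 20 cells per library, or 50 between classes. DESeq2 1.42.0, library size alone, no low-count filter, thinned sums, kept doublets, a stricter cell filter, resolution 2.0, members in the clustering and leaving out each tumour library were alternatives. CPM of class sums do not hold the TMM factors. Total UMIs of kept cells were 140556302, 145962330 and 11068572. Intervals and floors (3 counts) cover counting error only.

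The 9 members and the lists were chosen with earlier results of these data known. Named were all members, up to 2 called genes per direction of each list in all cells and in microglia-like cells, and the 3 genes most like each member. Fits without blood and marrow classes, on microglia clusters 3 and 9, and of differences between classes, the levels in endothelial clusters of resolution 2.0, and the levels that marker sums would carry, were added after seeing the data. The test was checked on simulated counts. Promoters are from RefSeq. Results for some other genes that the naming rules select are not reported here.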

Additional observations from a re-analysis of the deposited data

Results flagged for a closer look

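The change between tumour and normal brainstem differed between host classes for 4 of the 9 genes, by a test of the difference itself (edgeR, endothelial-like against microglia-like and astrocyte-like cells, with macrophage-like against microglia-like cells as a further contrast). Sirpa rose more in endothelial-like cells, by 4.06 ± 0.55 over microglia-like cells (log2, SE, adjusted p = 9.90e-05) and by 4.86 ± 0.59 over astrocyte-like cells (adjusted p = 5.49e-05). The changes of Axl and Gas6 were lower in endothelial-like than in microglia-like cells, by -2.58 ± 0.61 (adjusted p = 0.0121) and -3.06 ± 0.40 (adjusted p = 7.99e-05). Mfge8, which rose in endothelial-like and fell in astrocyte-like cells, differed by 3.04 ± 0.44 (adjusted p = 0.000318). The endothelial-like class held different clusters in the tumour and normal libraries. Within cluster 25 of resolution 2.0, Gas6 was at 195 and 244 CPM in the tumour libraries against 78.1 in the normal library, the opposite direction to the class as a whole. Axl was at 48.7 and 93.0 against 35.3 CPM there, and Mfge8 at 63.3 and 107 against 112 CPM, while Sirpa was at 107 and 174 against 6.42 CPM. Microglia-like cells also hold Gas6, Axl and Sirpa, and the part of their RNA in the values of cluster 25 was not tested. The contrasts called 4.91% and 4.07% of all genes. The classes share their 3 libraries, and the fit treats the sums as separate samples, so these p-values may be too small.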

How the results depend on the processing

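Of the members' log2 changes under the alternatives with a test, 567 kept direction and side of the threshold, 21 lost a call, 21 gained a call and 35 changed direction. When a tumour library was left out, which leaves 1 library a group and no test, 41 values moved and 83 did not. Of the counts of calls, 131 stayed within 1.5 times and 29 did not. The cause of these shifts was not tested. The low depth of the normal library (2395 UMIs a cell) limits Axl, Mfge8 and Tyro3, which rest there on few UMIs.

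Members called in microglia-like cells numbered 2 with DESeq2 and 1 in clusters 3 and 9 alone, where 680 genes were called against 3288. In neutrophil-like cells they numbered 1 with DESeq2 and 5 with doublets kept, in neuron-like cells 1 without the low-count filter and 2 with doublets kept, and in astrocyte-like cells 0 with thinned sums, where 3 genes were called. Genes called in macrophage-like cells, 178 in the main test, were 47 by library size alone, 338 with DESeq2, 0 without the filter (1764 at an unadjusted p under 0.05) and 0 with thinned sums (343 at an unadjusted p under 0.05), 46 with doublets kept, 374 under the stricter cell filter and 72 at resolution 2.0. In neutrophil-like cells (1675) they were 2554 by library size alone and 650 with DESeq2. In astrocyte-like cells (442) they were 705 by library size alone, 76 with DESeq2, 731 with doublets kept and 293 under the stricter filter. In endothelial-like cells (3673) DESeq2 called 1903. In neuron-like cells (470) library size alone called 0 (992 at an unadjusted p under 0.05), DESeq2 131, doublets kept 1043, and members allowed in clustering 276.

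Without the replicate block, macrophage-like against microglia-like cells gave 3 members and 2002 genes, in place of 5 and 3213, and the block changed no other count by over 1.5 times. No paired analysis was possible for tumour against normal because the normal group has 1 library.

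Changes of direction over all cells were Mertk at -0.38 and Pros1 at -0.071 by library size alone, and Mertk at -0.34, Cd24a at 2.94 and Cd47 at 0.41 without blood and marrow classes. In microglia-like cells Sirpa had -0.46 by library size alone, -0.011 with thinned sums and -0.030 in clusters 3 and 9, and Cd24a -0.33 by library size alone, -0.030 with doublets kept and -0.94 under the stricter filter. In macrophage-like cells library size alone gave Sirpa -0.39, Axl -0.20, Mfge8 -0.58, Gas6 -0.34 and Cd24a -0.47, and thinned sums gave Sirpa -0.48 and Gas6 -0.26. Mfge8 there had -0.041 with DESeq2, -0.086 with doublets kept, -0.23 under the stricter filter and -0.0034 with members in clustering, and Cd24a -0.97 with doublets kept and -0.18 at resolution 2.0. In neutrophil-like cells Sirpa had -0.063 with thinned sums, -0.32 under the stricter filter and -0.034 at resolution 2.0. In astrocyte-like cells Axl had 0.12 under the stricter filter, Cd47 0.0065 by library size alone, 0.053 without the low-count filter and 0.17 under the stricter filter, and Pros1 0.024 by library size alone, 0.084 with DESeq2, 0.062 without the low-count filter and 0.039 under the stricter filter. Of these, Cd24a over all cells was the only value called in the main test.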
